A study of Mus musculus with 31 samples.

Results

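CXC chemokines are small secreted proteins that steer leukocytes along concentration gradients by binding receptors on their surface. Apart from the ligands of CXCR2, which attract neutrophils, the family holds a set of lymphocyte and stromal axes. CXCL9 and CXCL10 are interferon-induced ligands of CXCR3, which sits mainly on activated T cells and NK cells. CXCL12 binds CXCR4 and retains or recruits leukocytes and progenitor cells, CXCL16 is made by myeloid cells as a membrane-bound ligand of CXCR6 on activated T cells, and CXCL14 is an orphan chemokine of skin and stroma. In tumors the CXCR3 axis is known as a route of T cell entry. The genes described here were the 8 whose name was Cxcl9, Cxcl10, Cxcr3, Cxcl12, Cxcr4, Cxcl14, Cxcl16 or Cxcr6, out of 46072 genes in the tables, and all 8 were measured in every library.

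The tumors were RM-9, a mouse prostate cancer line, and MC-38, a mouse colon cancer line (spelled RM9 and MC38 in the labels), grown under the skin of the right hind leg of wild-type male mice (C57BL/6 in the labels, C57BL/6J in the methods of the study). Irradiated mice were given 15 Gy (RT) in 1 session once the tumor measured about 8 mm, Control mice were not irradiated, and whole tumor tissue was taken 3, 12 or 24 h later for mRNA sequencing. There were 4 mice in each of the 8 groups except RM-9 at 24 h, which had 3, giving 31 libraries. The Control mice of each line carried the 3 h label, so the time after sham handling and the effect of RT at 12 and 24 h cannot be told apart, and the same 4 Control mice served all 3 comparisons of a line. The lines were numbered as separate sets of libraries, so tumor line and sequencing set cannot be told apart either. Each line is a transplanted cell line in whole tissue, in which fewer cells of a type and less RNA per cell cannot be told apart. The labels name the tissue adenocarcinoma. The epithelial keratin Krt8 had a median of 767 TPM (transcript copies scaled to a fixed library total, a level per transcript length) in RM-9. In the 16 MC-38 libraries its median was 0 and its highest value 0.202 TPM. Krt18 followed Krt8 (median 238 TPM in RM-9 and 0 in MC-38), and Epcam was at most 1.92 and 0.572 TPM in the 2 lines. Cdh1 did not go this way and was low in both (median 0.441 TPM in RM-9 and 0.566 TPM in MC-38).

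Depth, estimated from the files, was 21.4 to 29.4 M reads a library. One mitochondrial transcript, mt-Nd4l, took 35.6 to 43.5% of all TPM in RM-9 but 12.9 to 29.6% in MC-38, and the MC-38 library with 29.6% was Control mouse 1. TPM sums to a fixed total. The median gene differed by 0.63 on the log2 scale between the Control groups, and by 0.19, 0.33 and 0.22 at 3, 12 and 24 h in MC-38. Without the mitochondrially encoded genes these medians were 0.25, 0.11, 0.20 and 0.12, so a share of each shift remained. The values of the 8 genes are therefore given in TPM and, where it matters, after median-ratio scaling, which divides each library by a factor that sets the median gene equal.

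Cxcl9 and Cxcl10 are neighbors on mouse chromosome 5, both on the minus strand, at chr5:92321347-92328079 and chr5:92346638-92348889 (coordinates as in the files, which match GRCm38). Their promoters are shown because Cxcl9 fell at 12 h and Cxcl10 rose at 24 h after RT in MC-38. The 250 bases before each start are RefSeq sequence of GRCm38.p6 (chr5:92328080-92328329 and chr5:92348890-92349139), written 5′ to 3′ on the gene's strand. Capitals mark matches, on either strand, to the core of the interferon-stimulated response element (ISRE, searched as GAAA, any 2 bases, GAAA) and to the NF-kB motif.
Cxcl9: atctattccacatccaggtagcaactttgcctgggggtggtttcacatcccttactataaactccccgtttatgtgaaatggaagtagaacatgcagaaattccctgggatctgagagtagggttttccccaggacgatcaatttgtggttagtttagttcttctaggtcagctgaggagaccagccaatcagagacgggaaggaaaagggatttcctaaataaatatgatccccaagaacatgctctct
Cxcl10: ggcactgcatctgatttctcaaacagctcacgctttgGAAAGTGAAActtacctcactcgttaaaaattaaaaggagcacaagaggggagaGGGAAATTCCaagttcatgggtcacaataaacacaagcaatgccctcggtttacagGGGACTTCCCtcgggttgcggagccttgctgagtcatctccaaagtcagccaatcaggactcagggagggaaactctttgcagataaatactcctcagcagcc
The Cxcl10 window held 1 ISRE core at -213 to -204 and 2 NF-kB matches at -159 to -150 and -103 to -94, counted from the start, and no gamma-activated site (GAS, searched as TTCNNNGAA). The Cxcl9 window had no exact match for any of the 3 motifs. Sites that differ from a motif by a base were not counted, and the part of any site in the changes was not tested. Of 32851 promoters of this length, 2.977% held the ISRE core, 3.899% the NF-kB motif and 7.02% the GAS. Promoters were found for 7 of the 8 genes. Apart from Cxcl10, a match was present in Cxcl14 alone, with an ISRE core at -172 to -163 and a GAS at -191 to -183.

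The other genes lie at chrX:101731535-101734269 (Cxcr3), chr6:117168535-117181367 (Cxcl12), chr1:128588199-128592293 (Cxcr4), chr13:56288647-56296551 (Cxcl14), chr11:70453983-70459984 (Cxcl16) and chr9:123806477-123811754 (Cxcr6). Art3, Zmynd15 and Fyco1 overlap Cxcl10, Cxcl16 and Cxcr6 on the opposite strand. The library kit was stranded, but whether reads were assigned by strand is not given in the sources used here. Art3 and Zmynd15 stood at 0.616 to 16.4 TPM and 0.622 to 3.45 TPM, below their partners in every library. Fyco1 stood at 2.13 to 3.66 TPM in MC-38, where Cxcr6 ranged from 0.573 to 2.92 TPM, so the values of Cxcr6 carry that uncertainty.

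Unirradiated MC-38 tumors had far more mRNA of the interferon-induced CXCR3 ligands than RM-9 tumors, without more of the receptor. Cxcl10 measured 617, 928, 1043 and 776 TPM in the 4 MC-38 Control mice against 30.2, 36.9, 20.7 and 34.3 TPM in RM-9. The means differed 27.6-fold (log2 difference 4.77 ± 0.36 SE, limma, adjusted p = 5.26e-12, and past the threshold under each of 10 other settings and without any 1 mouse). Cxcl9 measured 66.9, 46.3, 47.0 and 71.4 TPM in MC-38 against 3.61, 4.63, 2.48 and 4.82 TPM in RM-9. This was a 14.9-fold difference of the means (log2 3.74 ± 0.33). Cxcr3 was 1.39, 1.39, 1.02 and 1.62 TPM in MC-38 and 1.50, 1.44, 2.10 and 1.74 TPM in RM-9, overlapping ranges (log2 difference -0.24 ± 0.19, limma, adjusted p = 0.250). After median-ratio scaling Cxcr3 was lower in MC-38, by 0.74 on the log2 scale.

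Markers of leukocytes also differed between the Control groups. Of 10 T cell markers tested, 9 were higher in MC-38 (7 after median-ratio scaling), as were 9 of 9 NK and cytotoxic markers (9 after scaling) and 9 of 10 macrophage markers (2 after scaling, with 1 lower), where 64.7% of all genes were higher. Their part in the differences of Cxcl9, Cxcl10, Cxcl16 and Cxcr6 was not tested.

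Of the 8 genes, 5 were called higher in MC-38 Control tumors and none lower, where 64.7% of all genes tested were called higher and 10.7% lower. The same 5 did not overlap between the lines, as did 50.9% of all genes in that direction. Beside the CXCR3 ligands these were Cxcl12 (9.23 ± 2.62 against 3.06 ± 1.03 TPM, mean ± SD, n = 4), Cxcr6 (2.33 ± 0.56 against 0.449 ± 0.160 TPM) and Cxcl16 (42.7 ± 4.05 against 21.4 ± 5.67 TPM). The median difference of the 8 genes was 1.24 on the log2 scale, beside 0.63 over all 15358 genes tested. Scaling decided some of these calls. Cxcl16 differed by 1.01 on the log2 scale in TPM but by 0.35 after median-ratio scaling (limma, adjusted p = 0.241), while Cxcr4 went from -0.41 (adjusted p = 0.178) to -1.05 (adjusted p = 0.00275), lower in MC-38. Without RM-9 Control mouse 4 Cxcr4 was also called lower, at -0.64.

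By level, Cxcl10 led MC-38 Control tumors, far above Cxcl9, whose range overlapped that of Cxcl16, followed by Cxcl14, Cxcl12, Cxcr4, Cxcr6 and Cxcr3. Neighbors in this order overlapped apart from Cxcl10 with Cxcl9 and Cxcr4 with Cxcr6. In RM-9 Control tumors Cxcl14 had the highest mean (33.3 TPM), with Cxcl10, Cxcl16 and Cxcr4 next, each overlapping the one before it. Cxcl9, Cxcl12 and Cxcr3 followed, and Cxcr6 was last and apart. Averaged over its 15 libraries, RM-9 had 0.437 TPM of Cxcr6, under the minimum of 0.5 that the other 7 genes passed, so its RM-9 values rest on few reads.

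**Figure D1:**
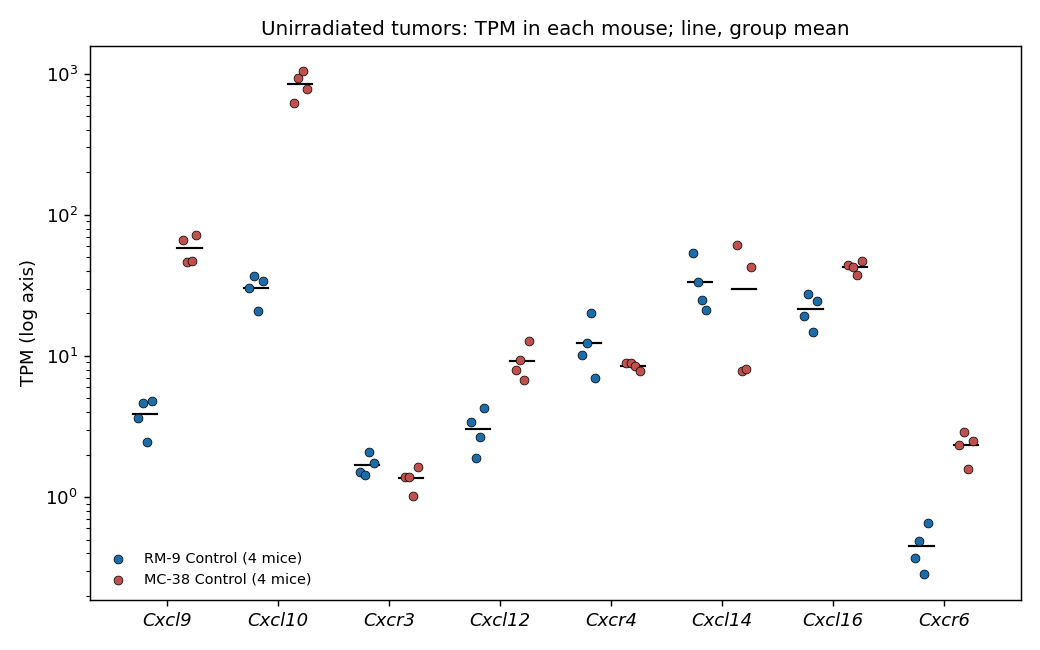
TPM on a log axis in each unirradiated mouse, with RM-9 in blue and MC-38 in red (4 mice each) and a line at each group mean. Cxcl9, Cxcl10, Cxcl12, Cxcl16 and Cxcr6 do not overlap between the lines, and Cxcl10 stands at 617 to 1043 TPM in MC-38.

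After 15 Gy the 8 genes moved in both directions in MC-38, and none passed the test in RM-9. In MC-38, none was called at 3 h by limma (2 at an unadjusted p under 0.05, 3 by Dunnett's comparison on TPM), where 0.0637% of 15698 genes were called. At 12 h Cxcl9, Cxcr3 and Cxcl16 fell and none rose, against 2.59% of genes called lower and 28.5% higher. At 24 h Cxcl10 rose while Cxcr3 and Cxcl16 fell, against 13.2% called higher and 0.548% lower. The median change of the 8 genes was -0.41, -0.65 and -0.04 on the log2 scale at the 3 times, beside 0.19, 0.33 and 0.22 over all genes. In RM-9 limma called 0 of 8 at 3, 12 and 24 h, beside 0.228%, 8.37% and 0% of 14014 genes, and no member was apart from Control without overlap, as 12.8%, 19.7% and 4.25% of genes were. At an unadjusted p under 0.05 the numbers were 0, 3 and 0, and Dunnett's comparison called 0, 1 and 0.

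**Figure D2:**
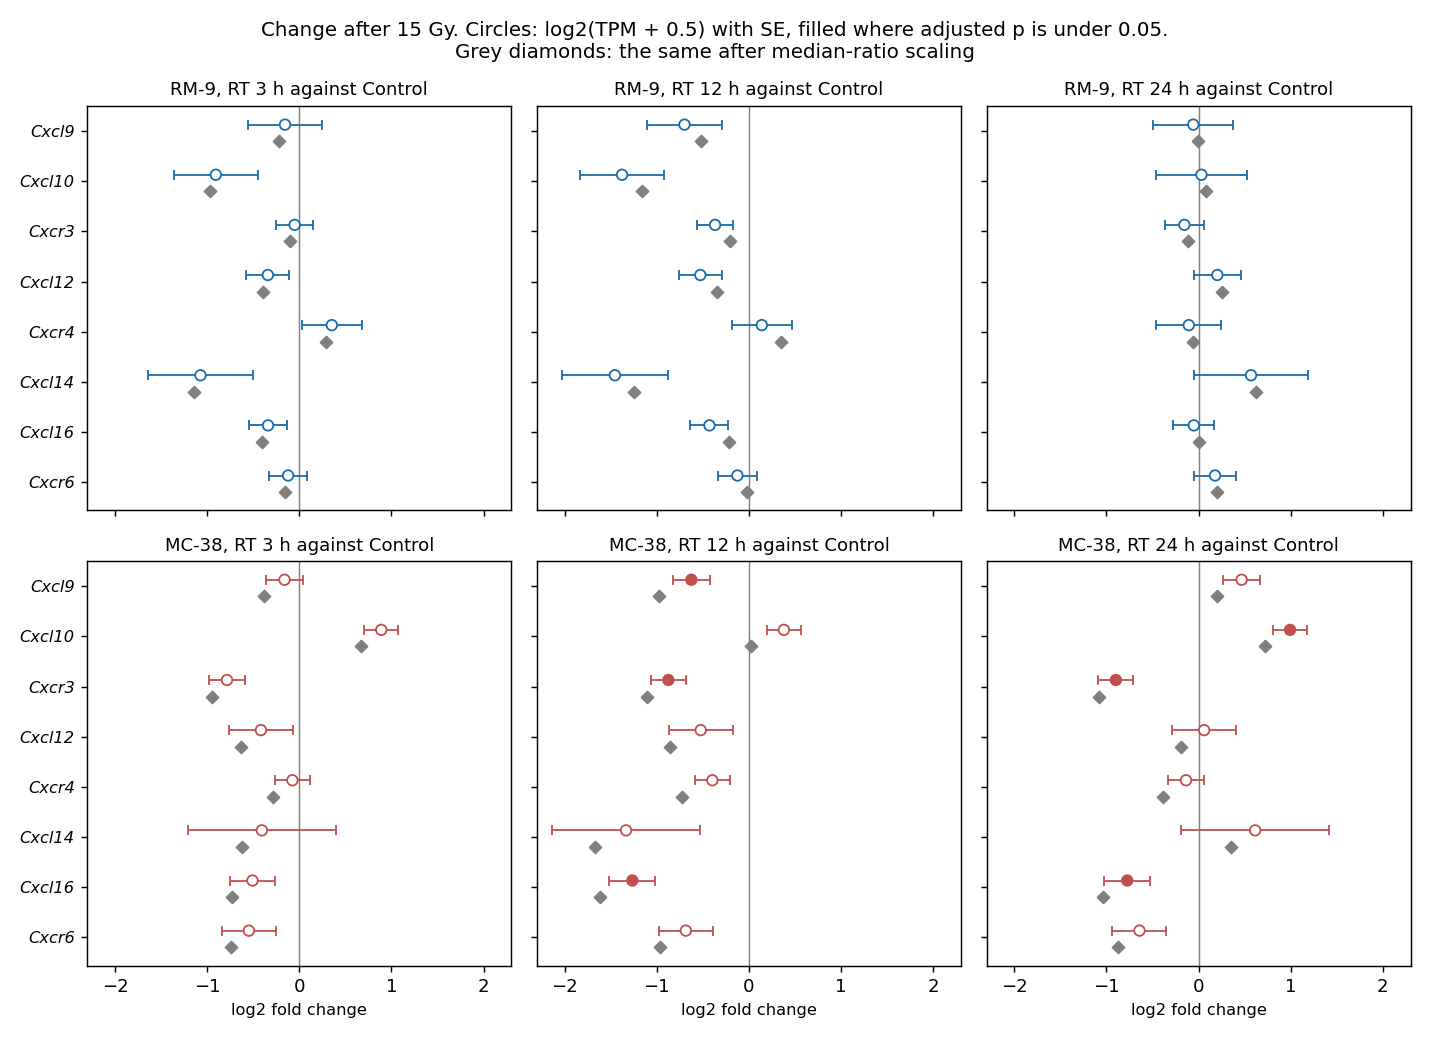
Log2 fold change of each gene after RT against Control, as log2(TPM + 0.5) with its SE (circles, filled where the limma adjusted p was under 0.05) and after median-ratio scaling (grey diamonds), in RM-9 (top) and MC-38 (bottom). The 6 filled circles are all in MC-38, and scaling moved the MC-38 values to the left at each time.

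Cxcl10, the interferon-induced CXCR3 ligand with the most mRNA, had higher values in MC-38 tumors at 3 and 24 h after RT, and passed the test at 24 h. It measured 1591, 1395, 1441 and 1709 TPM at 3 h, 1115, 1013, 1105 and 1065 TPM at 12 h and 2409, 1210, 1811 and 1379 TPM at 24 h. Every mouse at 3 and at 24 h lay above every Control mouse, whose highest value was 1043 TPM, while at 12 h a single mouse lay below it. Groups that did not overlap in this direction were found for 7.2% of genes at 3 h and 14.8% at 24 h. The rise at 24 h was 2.02-fold in the means (log2 0.99 ± 0.18, limma, adjusted p = 0.00332). It held without any 1 mouse, was 0.72 after median-ratio scaling, and missed the threshold with only the 2 groups in the fit (adjusted p = 0.0547). At 3 h the change was of like size, 1.82-fold (log2 0.89 ± 0.18, limma, adjusted p = 0.0673), and passed the threshold without Control mouse 3 (1.00, adjusted p = 0.0241) and without mitochondrially encoded genes (0.80, adjusted p = 0.0421). Those were 1 of 8 fits with 1 mouse left out and 1 of 10 other settings (adjusted p up to 0.246). At 12 h the change was 0.38 (adjusted p = 0.111), or 0.02 after median-ratio scaling, and it passed without Control mouse 3 alone (0.49, adjusted p = 0.0459).

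Cxcl9, the other CXCR3 ligand, followed a different course in the same tumors. In MC-38 it measured 67.5, 51.2, 38.5 and 49.9 TPM at 3 h, 34.4, 37.5, 43.0 and 32.5 TPM at 12 h and 97.7, 65.5, 98.1 and 61.0 TPM at 24 h. At 12 h all 4 mice lay under the lowest Control mouse (46.3 TPM), a pattern that 1.97% of genes showed, and at 24 h 2 lay above the highest (71.4 TPM). Cxcl9 fell by 0.63 ± 0.20 on the log2 scale at 12 h (limma, adjusted p = 0.0317). The call was lost without Control mouse 1 or 4 (-0.55 and -0.52) and without RT 12 h mouse 1, 2 or 4 (-0.60, -0.64 and -0.57), with adjusted p up to 0.0960, and without the filter on low genes (adjusted p = 0.0651). Dunnett's comparison of TPM with the shared Control group did not call it either. The values at 3 and 24 h did not pass (24 h: log2 0.47 ± 0.20, adjusted p = 0.126).

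Dividing Cxcl10 by Cxcl9 within each library removes the scaling, and was added after the values were seen. In MC-38 the ratio was 9.23, 20.0, 22.2 and 10.9 in Control mice and 23.6, 27.3, 37.4 and 34.3 at 3 h. It was 32.4, 27.0, 25.7 and 32.7 at 12 h and 24.6, 18.5, 18.5 and 22.6 at 24 h. All 4 mice at 3 h and all 4 at 12 h lay above every Control mouse, and 2 of 4 did at 24 h. Cxcl10 thus gained on Cxcl9 at both early times, first with Cxcl10 at high values and then with Cxcl9 at low ones. In RM-9 the Control ratios were 7.10 to 8.38 and 3 of 4 mice lay below all of them at 3 h (3.40 to 4.63) and again at 12 h (3.36 to 6.46), the other mouse lying above.

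Cxcr3, the receptor of both ligands, had lower values in MC-38 tumors at every time after RT and passed the test at 12 and 24 h. Against Control values of 1.39, 1.39, 1.02 and 1.62 TPM, it measured 0.789, 0.589, 0.623 and 0.329 TPM at 3 h. The values were 0.452, 0.704, 0.642 and 0.279 TPM at 12 h and 0.632, 0.474, 0.354 and 0.515 TPM at 24 h. None of the 12 irradiated mice reached the lowest Control mouse, where 0.975%, 1.97% and 0.898% of genes were lower without overlap at the 3 times. Cxcr3 fell by 0.87 ± 0.19 at 12 h and by 0.90 ± 0.19 at 24 h on the log2 scale (limma, adjusted p = 0.0110 and 0.00768), without any 1 mouse too. Testing only genes with a mean of at least 5 TPM besides the 8 gave adjusted p = 0.0762 and 0.109, and the fit of only the 2 groups gave 0.0514 at 24 h. At 3 h the value was -0.78 ± 0.19 (adjusted p = 0.0903), and it passed without Control mouse 3 (-0.88, adjusted p = 0.0423) and with FPKM (-0.82, adjusted p = 0.0455). That is 1 of 8 fits with 1 mouse left out and 1 of 10 other settings, with adjusted p up to 0.413. The levels of Cxcr3 are low, and 1 read per kilobase is worth 0.0386 to 0.0607 TPM in MC-38.

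Markers of T cells, the main bearers of CXCR3, were in part lower at the same times. Of 12 T cell markers, 6 fell and none rose at 12 h in MC-38, and 4 fell at 24 h (10 and 7 after median-ratio scaling). Among all genes 2.59% and 0.548% fell at the 2 times, and 1610 and 1311 of 15706 after scaling. Cd3e, a subunit of the T cell receptor complex, was 2.65 ± 0.38 TPM in Control mice and 1.39 ± 0.55 TPM at 12 h (log2 -0.77, limma, adjusted p = 0.0341), and 1.18 ± 0.45 TPM at 24 h. Their summed level was 33.3 to 48.3 TPM in Control mice, 23.3 to 40.6 at 3 h, 19.4 to 35.9 at 12 h and 17.1 to 30.9 TPM at 24 h. Of 9 NK and cytotoxic markers, 1 fell at 12 h (Klrk1, an activating receptor) and 1 rose at 24 h (Gzmb, granzyme B, 56.6 ± 16.6 to 111 ± 30.6 TPM). Among all genes 13.2% rose at 24 h. At 3 h neither Cxcr3 nor any T cell marker was called by limma. The median change of the 12 T cell markers was then -0.34 on the log2 scale, beside 0.19 over all genes. Cd2, with the smallest p of them, went from 4.03 ± 0.65 to 2.29 ± 0.42 TPM (-0.70, limma, adjusted p = 0.129). In 3 of 8 groups the mouse highest in Cxcr3 was the one highest in T cell markers, against 4 for NK and 4 for keratinocyte markers. In RM-9, where 6 of the T cell markers were tested, 4 fell at 12 h and 0 after median-ratio scaling. There 1163 of 14014 genes fell in TPM. The part of T cells in the values of Cxcr3 was not tested.

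In RM-9 tumors the CXCR3 axis had overlapping values throughout, and both ligands, but not Cxcr3, stood below their MC-38 levels. Cxcl10 measured 21.9, 26.1, 4.31 and 23.5 TPM at 3 h, 10.5, 7.85, 21.2 and 8.84 TPM at 12 h and 43.3, 26.8 and 24.4 TPM at 24 h. At 12 h 3 mice lay under the lowest Control mouse (20.7 TPM) and mouse 3 did not. The difference at 12 h was -1.38 ± 0.45 on the log2 scale (limma, adjusted p = 0.0656), opposite in sign to MC-38. It passed without RT 12 h mouse 3 (-1.67, adjusted p = 0.0448), with only the 2 groups in the fit (adjusted p = 0.0493) and among genes of at least 5 TPM (adjusted p = 0.0477). Those were 1 of 8 fits with 1 mouse left out and 2 of 10 other settings. The limma adjusted p reached 0.263 under the settings, and median-ratio scaling gave -1.17. Cxcl9 measured 6.13, 2.59, 0.930 and 6.92 TPM at 3 h, 3.13, 1.97, 2.38 and 1.37 TPM at 12 h and 4.37, 3.40 and 3.16 TPM at 24 h. Cxcr3 measured 2.10, 1.44, 1.86 and 1.15 TPM at 3 h, 1.32, 1.48, 0.786 and 1.26 TPM at 12 h and 0.943, 2.13 and 1.48 TPM at 24 h. Its changes were -0.05, -0.37 and -0.15 at 3, 12 and 24 h (limma, adjusted p from 0.218 to 0.9995).

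**Figure D3:**
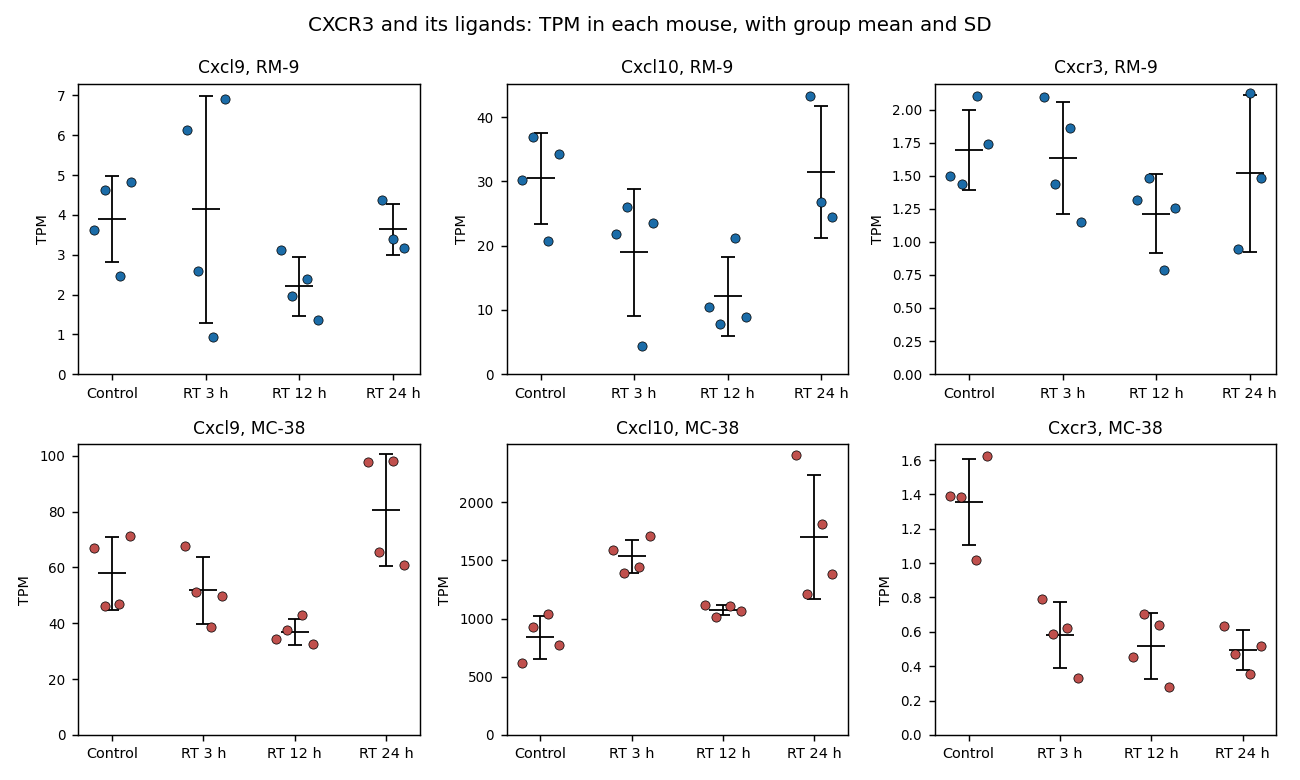
TPM of Cxcl9, Cxcl10 and Cxcr3 in each mouse (points) with the group mean and SD (bars), in RM-9 (top, blue) and MC-38 (bottom, red), each panel with its own axis from 0. In MC-38, Cxcl10 at 3 and 24 h lies above the Control mice, Cxcr3 lies below them at all 3 times, and Cxcl9 lies below them at 12 h.

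The change of Cxcl10 at 12 h differed between the lines in TPM, and that of Cxcl16 did so narrowly. Taking the RM-9 change from the MC-38 change left 1.76 ± 0.51 for Cxcl10 on the log2 scale (limma, adjusted p = 0.0103) and -0.84 ± 0.34 for Cxcl16 (adjusted p = 0.0452). These were 1 of 8 genes in each direction, where 44.9% of genes had a larger value in MC-38 and 0.469% a smaller one. The median gene differed by 0.50, and after median-ratio scaling Cxcl10 gave 1.23 (adjusted p = 0.173). For Cxcl10 the test also missed the threshold with FPKM (adjusted p = 0.142) and without mitochondrially encoded genes (adjusted p = 0.0518). For Cxcl16 median-ratio scaling gave -1.36, and the call was kept in 6 of 16 fits with 1 mouse left out (adjusted p up to 0.114 in the others, without RM-9 Control mouse 1 or 3, RM-9 RT 12 h mouse 1, 3 or 4, MC-38 Control mouse 1, 2 or 4, or MC-38 RT 12 h mouse 2 or 4). At 3 and 24 h none of the 8 passed, beside 0% and 1.81% of genes, with 2 and 3 at an unadjusted p under 0.05. At 3 h Cxcl10 had a difference of 1.80 ± 0.51 (adjusted p = 0.343). For Cxcr3, called in MC-38 alone, the difference between the lines was -0.73, -0.51 and -0.74 at 3, 12 and 24 h (adjusted p = 0.400, 0.118 and 0.130).

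Cxcl16, the transmembrane ligand of CXCR6 that myeloid cells make, fell in MC-38 tumors after RT. Control mice had 44.4, 42.5, 37.2 and 46.8 TPM. At 3 h the values were 37.2, 28.5, 31.9 and 23.3 TPM, at 12 h 20.6, 13.2, 29.3 and 11.5 TPM and at 24 h 18.2, 21.8, 32.2 and 29.1 TPM. All 12 irradiated mice lay below every Control mouse, by a hair at 3 h (37.24 against 37.25 TPM). Lower values without overlap were found for 0.975%, 1.97% and 0.898% of genes at 3, 12 and 24 h. Cxcl16 fell by 1.27 ± 0.25 on the log2 scale at 12 h (limma, adjusted p = 0.00842), under each of 10 other settings and without any 1 mouse. At 24 h it fell by 0.77 ± 0.25 (adjusted p = 0.0487). This call was lost without Control mouse 1, 2 or 4 (-0.75, -0.77 and -0.73) and without RT 24 h mouse 1, 2 or 4 (-0.63, -0.71 and -0.85), with adjusted p up to 0.122. It was also lost without the filter, without the trend and with only the 2 groups (adjusted p = 0.0983, 0.0566 and 0.0639). At 3 h the value was -0.51 ± 0.25 (adjusted p = 0.260).

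In RM-9 Cxcl16 changed less and the groups overlapped. Control mice had 19.1, 27.6, 14.8 and 24.4 TPM, against 16.4, 20.1, 11.2 and 19.6 TPM at 3 h, 18.6, 12.1, 15.96 and 15.5 TPM at 12 h and 23.1, 17.2 and 20.6 TPM at 24 h. The largest of these changes was at 12 h (-0.43 ± 0.21, limma, adjusted p = 0.169), and it was -0.22 after median-ratio scaling.

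Macrophage markers were lower at the same times as Cxcl16. Of 10, 7 fell and none rose at 12 h in MC-38 (8 after median-ratio scaling; median change -1.07), and 1 fell at 24 h (4 after scaling). Among all genes 2.59% and 0.548% fell at the 2 times, and 1610 and 1311 of 15706 after scaling. C1qa, C1qb and C1qc, the complement C1q chains that tissue macrophages make, fell by 1.25, 1.56 and 1.31 on the log2 scale at 12 h. Over the 10 markers the summed level was 865 to 1376 TPM in Control mice and 611 to 949 TPM at 3 h, then 319 to 751 TPM at 12 h and 706 to 887 TPM at 24 h. The mouse with the most Cxcl16 at 12 h, mouse 3 with 29.3 TPM, also had the highest of these sums. It was highest in T cell, dendritic cell and adipocyte marker sums too. In 5 of the 8 groups the mouse highest in Cxcl16 was the one highest in macrophage markers, and likewise in 5 for B cell markers and 4 for T cell markers. The tally with macrophage markers was higher for Cxcl9 (7 of 8) and Cxcl12 (6 of 8). In RM-9 5 of the 10 macrophage markers fell at 12 h, and 0 after median-ratio scaling. There 1163 of 14014 genes fell in TPM. The part of macrophages in the change of Cxcl16 was not tested.

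Cxcr6, the receptor of CXCL16, had higher values in Control than in most irradiated MC-38 mice, without passing the test. Control mice had 2.34, 2.92, 1.57 and 2.50 TPM, against 1.97, 0.986, 1.70 and 1.14 TPM at 3 h, 0.915, 0.849, 2.58 and 1.04 TPM at 12 h and 0.573, 1.48, 1.81 and 1.58 TPM at 24 h. At 12 h 3 mice lay under every Control mouse and mouse 3 did not. That mouse also had the highest T cell marker sum of its group (35.9 TPM, the other 3 at 19.4 to 23.3). It was likewise highest in macrophage (751 TPM), dendritic cell (25.4 TPM) and adipocyte (41.8 TPM) marker sums, and in Cxcl9, Cxcl12, Cxcr4 and Cxcl16. The mouse highest in Cxcr6 was highest in T cell markers in 5 of 8 groups. The tally was 4 each for macrophage, dendritic cell and B cell markers. Their part in the values of Cxcr6 was not tested. The difference of Cxcr6 at 12 h was -0.68 ± 0.29 on the log2 scale (limma, adjusted p = 0.0792), and passed without RT 12 h mouse 3 (-0.96, adjusted p = 0.0334), without Control mouse 3 (-0.83, adjusted p = 0.0420) and after median-ratio scaling (-0.96, adjusted p = 0.0415). Those were 2 of 8 fits with 1 mouse left out and 1 of 10 other settings, with adjusted p up to 0.186. In RM-9 the receptor ranged from 0.162 to 0.880 TPM in all groups together.

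Cxcl12, the stromal ligand of CXCR4, did not pass the test at any time after RT in either line. In MC-38 Control mice it measured 7.95, 9.38, 6.79 and 12.8 TPM. The values after RT were 4.81, 7.04, 12.0 and 4.60 TPM at 3 h, 6.36, 6.83, 11.1 and 2.77 TPM at 12 h and 10.5, 6.83, 12.4 and 8.71 TPM at 24 h. All groups overlapped, and the change at 12 h was -0.52 ± 0.35 on the log2 scale (limma, adjusted p = 0.229). In RM-9 it was 3.38, 1.89, 2.65 and 4.30 TPM in Control mice, 1.94, 2.62, 1.99 and 2.38 TPM at 3 h, 2.91, 1.49, 2.44 and 1.14 TPM at 12 h and 3.65, 2.88 and 3.94 TPM at 24 h. The change at 12 h there was of the same size (-0.53 ± 0.23, adjusted p = 0.141).

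Cxcr4, the widely expressed receptor of CXCL12, kept to a narrow range in MC-38 and varied more in RM-9. In MC-38 it measured 8.97, 8.98, 8.47 and 7.81 TPM in Control mice, 6.28, 8.53, 9.04 and 8.80 TPM at 3 h, 4.45, 7.44, 9.46 and 5.18 TPM at 12 h and 7.44, 7.12, 7.11 and 9.46 TPM at 24 h. At 12 h 3 of 4 mice lay below every Control mouse (-0.40 ± 0.19 on the log2 scale, limma, adjusted p = 0.110). The difference passed the test after median-ratio scaling (-0.73, adjusted p = 0.0250), with FPKM (-0.65, adjusted p = 0.0302) and without RT 12 h mouse 3 (-0.58, adjusted p = 0.0415). That is 2 of 10 other settings and 1 of 8 fits with 1 mouse left out, with adjusted p up to 0.313. In RM-9 Control mice had 10.2, 12.3, 20.1 and 6.996 TPM, against 24.6, 13.1, 15.4 and 9.85 TPM at 3 h, 14.7, 14.4, 8.93 and 14.1 TPM at 12 h and 7.58, 18.0 and 8.92 TPM at 24 h. These overlapped throughout, with changes of 0.35, 0.14 and -0.11 (adjusted p from 0.526 to 0.9995).

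Cxcl14, the orphan chemokine, was the most variable of the 8 genes, more between mice of 1 group than between groups. In MC-38 Control mice it measured 61.0, 7.78, 8.07 and 42.8 TPM, and at 24 h 84.0, 10.0, 67.2 and 16.8 TPM. At 3 h the values were 13.4, 34.3, 7.13 and 16.1 TPM and at 12 h 6.23, 17.2, 14.2 and 2.18 TPM. Over the 16 MC-38 libraries the highest value was 38.6 times the lowest, against 2.13 times for Cxcr4 and 3.90 times for Cxcl10. In RM-9 Cxcl14 measured 53.8, 33.3, 24.7 and 21.2 TPM in Control mice, 6.07, 38.7, 11.8 and 15.7 TPM at 3 h, 13.5, 4.55, 32.4 and 7.12 TPM at 12 h and 75.7, 26.9 and 49.2 TPM at 24 h. None of its changes passed the test. At 12 h they were -1.45 ± 0.57 in RM-9 and -1.33 ± 0.81 in MC-38 on the log2 scale (limma, adjusted p = 0.104 and 0.191), and without RM-9 RT 12 h mouse 3 the former passed (-1.96, adjusted p = 0.0438). The RM-9 change passed in 1 of 8 fits with 1 mouse left out and 0 of 10 other settings.

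**Figure D4:**
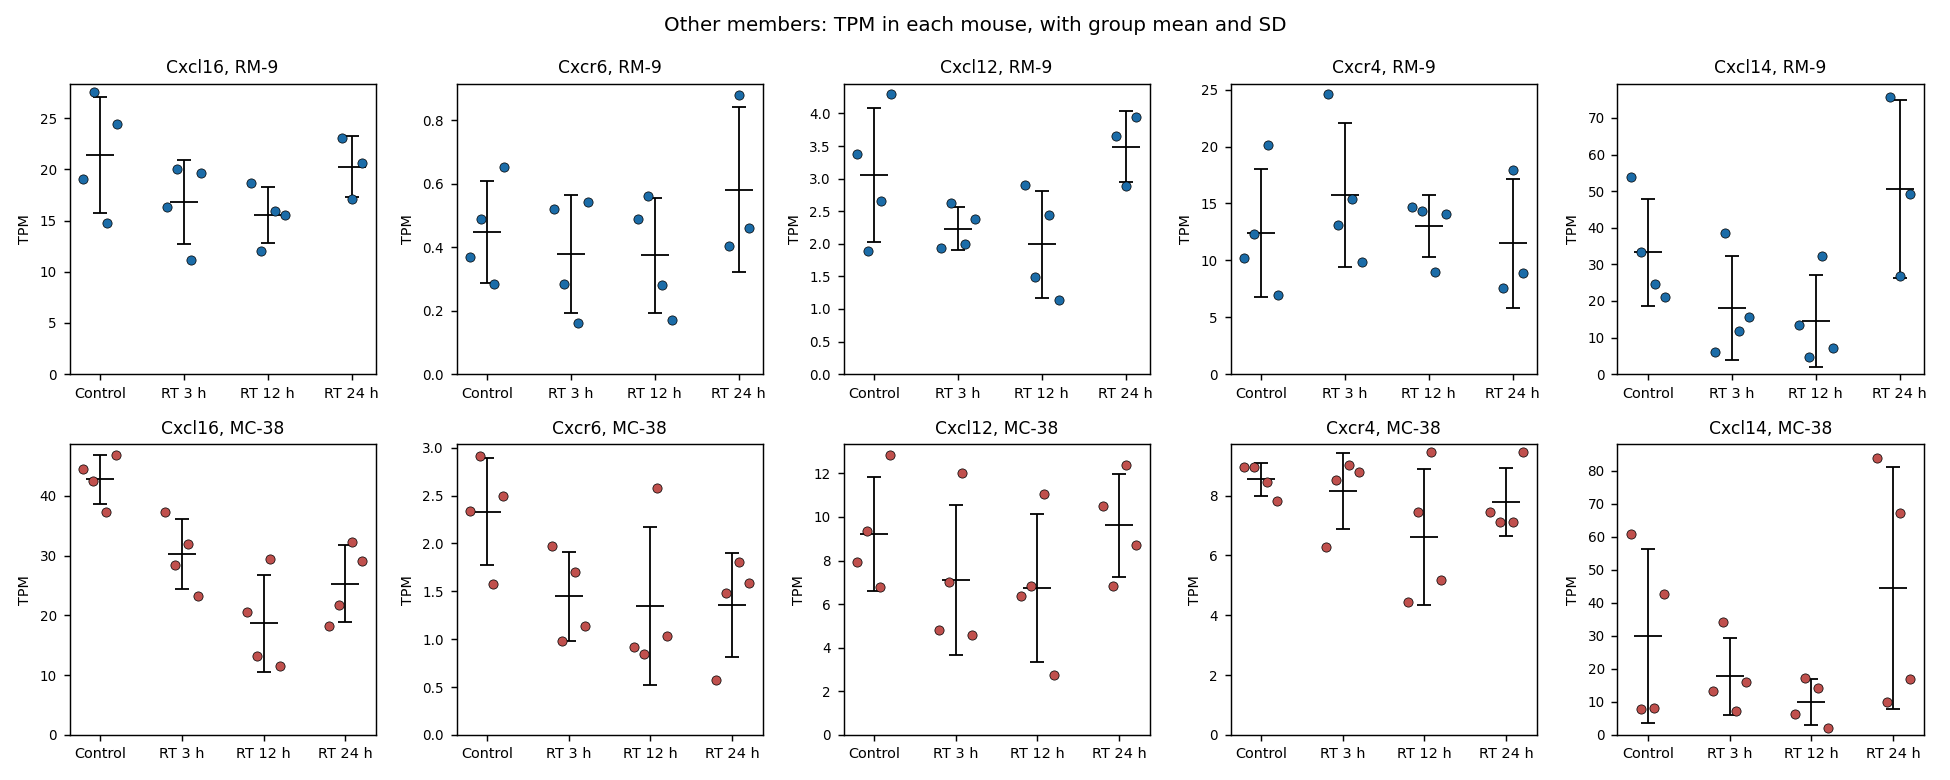
TPM of Cxcl16, Cxcr6, Cxcl12, Cxcr4 and Cxcl14 in each mouse (points) with the group mean and SD (bars), in RM-9 (top, blue) and MC-38 (bottom, red), each panel with its own axis from 0. Cxcl16 in MC-38 lies below the Control mice in all 12 irradiated mice, while Cxcl14 in MC-38 runs from 7.78 to 61.0 TPM among Control mice alone.

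The mouse highest in Cxcl14 within a group was as a rule also highest in markers of muscle and fat. In all 8 groups the mouse with the most Cxcl14 was the one with the highest summed level of 8 skeletal muscle markers (Acta1, Ckm and others). In 7 of 8 groups it was the one with the highest adipocyte marker sum. The tally was 6 for endothelial, 2 for fibroblast and 1 for keratinocyte markers, and 0 or 1 for each leukocyte list. In MC-38 Control mice the muscle sums were 11961, 18.6, 148 and 1953 TPM, in the order of the Cxcl14 values given above, and at 24 h they were 3822, 10.4, 1182 and 130 TPM. RM-9 Control mice had 2382, 1379, 251 and 1120 TPM. Below the highest mouse the order did not always hold. RM-9 Control mouse 4 had a larger muscle sum than mouse 3 but less Cxcl14 (21.2 against 24.7 TPM). In RM-9 at 3 h mouse 1 had the least Cxcl14 (6.07 TPM) with a muscle sum of 28.2 TPM, against 3.02 and 5.77 TPM in mice 3 and 4. Muscle sums spanned 2.83 to 11961 TPM over the 31 libraries, and no group was free of this spread. The part of surrounding tissue in the values of Cxcl14 was not tested.

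**Figure D5:**
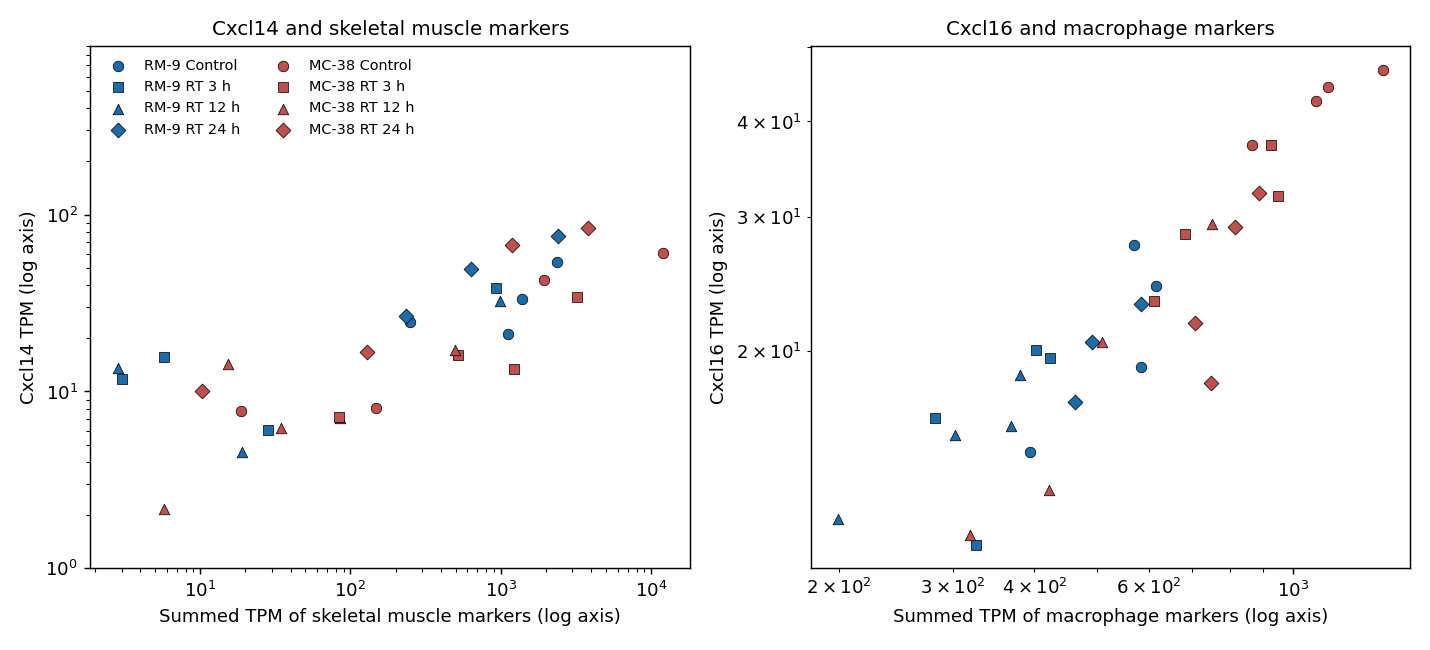
TPM of Cxcl14 against the summed TPM of 8 skeletal muscle markers (left) and of Cxcl16 against that of 10 macrophage markers (right), each point 1 library, all axes logarithmic. The 2 libraries with most Cxcl14 in MC-38 Control have muscle sums of 11961 and 1953 TPM, and the 4 MC-38 Control libraries have the highest Cxcl16 with macrophage sums of 865 to 1376 TPM.

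Genes known to induce the CXCR3 ligands were in large part higher in MC-38 at baseline, as were most genes, and some rose after RT. The list held 16 genes of the interferon, TNF and NF-kB routes. Of these, 13 were higher in MC-38 than in RM-9 Control tumors and none lower (9 higher and 4 lower after median-ratio scaling), beside 64.7% of all genes called higher. Irf1, a transcription factor of the interferon response, was 164 ± 36.5 TPM in MC-38 and 18.2 ± 3.04 TPM in RM-9. After RT in MC-38, none of the 16 was called at 3 h, 3 rose at 12 h (none after median-ratio scaling, which called 1 lower) and 9 rose at 24 h (5 after scaling). Of all genes 28.5% rose at 12 h, a larger share than in the list, and 13.2% at 24 h, a smaller one.

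Ifnb1, encoding interferon beta, was 0.684 ± 0.240 TPM in MC-38 Control mice and 4.38 ± 2.16 TPM at 24 h (log2 1.97 ± 0.25, limma, adjusted p = 0.000361, 1.79 after median-ratio scaling). Tnf rose from 3.90 ± 1.14 to 7.59 ± 0.94 TPM at 24 h. The change of Ifnb1 at 24 h differed between the lines by 2.00 ± 0.28 on the log2 scale. That is about the size of the MC-38 change alone (1.97), so it largely restates the MC-38 rise. In RM-9 the list had 14 genes tested, with 2 lower at 12 h (Ifngr1 and Rela, neither after median-ratio scaling).

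Among 11 other CXC system genes, 8 were tested in MC-38 and Cxcl11, the remaining CXCR3 ligand, stood out in level and change. C57BL/6 mice are known to carry a frameshift in Cxcl11 and to lack the protein, so its mRNA is a readout only. It was 0.0816 ± 0.0422 TPM in RM-9 Control mice and 13.5 ± 4.18 TPM in MC-38 Control mice. In MC-38 it was 28.3 ± 1.29 TPM at 3 h (log2 1.10 ± 0.22, limma, adjusted p = 0.0673), 22.4 ± 2.06 TPM at 12 h and 51.3 ± 17.0 TPM at 24 h. It rose at 12 h by 0.76 (adjusted p = 0.0248, 0.42 and adjusted p = 0.167 after median-ratio scaling) and at 24 h by 1.89 on the log2 scale. The 7 others, among them the scavenging receptors Ackr1 and Ackr3 and the sheddases Adam10 and Adam17 that release CXCL16, were not called at 3, 12 or 24 h in MC-38. After median-ratio scaling Dpp4, the peptidase that trims CXCR3 ligands, was called lower at 12 h (-0.75).

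Genes whose pattern over the 31 libraries was most like that of a member, centred on each line, grouped by member, and are given as a description because the libraries share depth and scaling. Among 12256 genes ranked, Cxcl10 was closest to the interferon-stimulated genes Ifit1, Isg15 and Usp18 (Pearson r of 0.939, 0.934 and 0.923). Cxcl9 was closest to Ly6c2, Cfb and Ly6i (0.830, 0.830 and 0.826), none of them among the 3 closest to Cxcl10. Only the 3 closest genes of each member were compared. Cxcl16 was closest to AF251705, Tyrobp and C1qc (0.942, 0.933 and 0.924), Cxcl12 to Cebpd, Gas6 and Clec10a (0.848, 0.843 and 0.834) and Cxcr4 to Dnajb9, Ube2g2 and Gde1 (0.747, 0.742 and 0.715). Cxcl14 was closest to Cilp, Fxyd1 and H19 (0.895, 0.890 and 0.890). Cxcr3 and Cxcr6 were under 1 TPM on average in 1 line and were not ranked.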

How the data were processed

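Tumor RNA was sequenced as single 75-base reads (stranded mRNA libraries). The authors deposited 1 gene table a library with TPM, FPKM and coverage, and per the labels bcl2fastq 2.17 was used. The processing notes name GRCm39, but the coordinates match GRCm38 (GENCODE M21): of 45137 shared genes, 91.1% have the same start or end. Aligner and quantifier are not given in the sources used here. The deposited TPM values were tested; deposited FPKM values served as an alternative, and the ratio of deposited coverage to FPKM gave the depth of each library.

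Members and gene lists were chosen with earlier results of these data known. TPM was tested as log2(TPM + 0.5) with limma 3.58.1 (R 4.3.3; eBayes with trend), all 4 groups of a line in 1 fit and 8 groups for comparisons between lines, with Benjamini-Hochberg adjustment over all genes (threshold 0.05). Fold changes on this scale understate changes of low genes. Genes with a mean of at least 0.5 TPM and the 8 members were tested. Steps were tested on simulated data. Two-sided exact permutation tests of mean TPM reached their smallest p of 0.0286 for 14 of 56 member comparisons, those whose groups did not overlap. For 3 against 4 mice the smallest p is 0.0571. Mice are the replicates. Depth limits low genes: 1 read per kilobase is worth 0.0277 to 0.0607 TPM. Named genes were all 8 members, up to 4 genes of each list and comparison with the smallest p, and the 3 genes most like each member, apart from an item that is not reported here. Genes of the marker lists for dendritic cells, neutrophils, B cells, fibroblasts, endothelium and keratinocytes were counted the same way. The settings varied were the pseudocount (0.1 and 1), the scaling (median-ratio), the filters, no trend, a replicate block, 2 groups only, Dunnett's comparisons, each mouse left out, and, added after the data were seen, FPKM. The ratio of Cxcl10 to Cxcl9, the epithelial markers and the count of mice highest in both a member and a marker list were chosen after values were seen. Python 3.11.15 and scipy 1.17.1 were used.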

Additional observations from a re-analysis of the deposited data

Results flagged for a closer look

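Among 56 groups of 4 mice of the 8 genes, 3 held a mouse far from the rest by Dixon's criterion, which flags about 1 group in 20 by chance. Cxcr4 in RM-9 at 12 h had its lowest value, 8.93 TPM, in mouse 3, with the other 3 mice at 14.1 to 14.7 TPM. Cxcr4 in MC-38 at 24 h had its highest value, 9.46 TPM, in mouse 4, with the others at 7.11 to 7.44 TPM. Cxcr6 in MC-38 at 12 h had its highest value, 2.58 TPM, in mouse 3, with the others at 0.849 to 1.04 TPM.

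The change at 12 h differed between the lines for a pair of genes, by the test of the difference itself. For Cxcl10 the change in MC-38 exceeded that in RM-9 by 1.76 on the log2 scale (0.38 against -1.38). For Cxcl16 the difference was -0.84 (-1.27 against -0.43). In this comparison 44.9% of all genes were called larger in MC-38 and 0.469% smaller. Cxcl10 missed the threshold after median-ratio scaling (limma, adjusted p = 0.173), with FPKM and without mitochondrially encoded genes. Cxcl16 kept its call in 6 of 16 fits with 1 mouse left out.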

How the results depend on the processing

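In RM-9 at 12 h the count went from 0 to 1 (Cxcl10) with a minimum mean of 5 TPM, with only the 2 groups compared and with Dunnett's comparisons. In MC-38 at 3 h it went from 0 to 1 without mitochondrially encoded genes, to 1 with FPKM and to 3 with Dunnett's comparisons. In MC-38 at 12 h median-ratio scaling gave 5 in place of 3, FPKM 4 (with Cxcr4), and no filter, Dunnett's comparisons (both without Cxcl9) and the 5 TPM minimum (without Cxcr3) 2. At 24 h the fit of only the 2 groups gave 0 in place of 3, and no filter, no trend (both without Cxcl16) and the 5 TPM minimum (without Cxcr3) gave 2. Between the Control groups, 5 became 6 with median-ratio scaling and FPKM and 7 without mitochondrially encoded genes. Of the 2 genes whose 12 h change differed between lines, 1 remained with median-ratio scaling, without mitochondrially encoded genes, with FPKM, without the filter and with the replicate block.

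With each mouse left out in turn, the count ranged from 0 to 2 in RM-9 at 12 h (2 without RT 12 h mouse 3), from 0 to 2 in MC-38 at 3 h (2 without Control mouse 3), from 2 to 5 in MC-38 at 12 h (5 without Control mouse 3 or RT 12 h mouse 3), from 2 to 3 at 24 h, from 5 to 6 between the Control groups and from 1 to 3 for the difference between lines at 12 h. In these last fits Cxcl10 passed in 16 of 16 and Cxcl16 in 6 of 16. The change of Cxcl14 at 3 h in MC-38, -0.41, turned to 0.11 without Control mouse 1, over a range of -0.85 to 0.11. The causes were not tested.

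The mouse numbers do not pair the samples: correlations of same-numbered mice's deviations ran from -0.389 to 0.317 over 21 pairs in RM-9 and from -0.483 to 0.554 over 24 in MC-38. With the replicate block, 1 gene had an unequal change at 12 h, and no other count changed. Scaling set the direction of calls over all genes: at 12 h in MC-38, 4469 higher and 406 lower became 971 and 1610 after median-ratio scaling, at 24 h 2073 and 86 became 1208 and 1311, at 12 h in RM-9 10 and 1163 became 10 and 6, and between Control groups 9943 and 1641 became 5108 and 4890. The depth limits Cxcr3 in MC-38 and Cxcr6 in RM-9, whose levels rest on few reads.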
